A study of Mus musculus with 4 samples.

Results

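The comparison described here is that of Seh1-depleted (iKO) with control (Ctrl) neural stem cells of the mouse kept in growth medium, at day 0. It takes 2 of the 4 RNA-seq libraries of the study, 1 a group, and 12742 of the 17621 genes in the files, those with a mean of at least 1 CPM (counts scaled to library size) in these libraries. The cells were primary cultures from the cortex of mouse pups at P0, on laminin and poly-L-ornithine, in a medium with N-2, B27, EGF and bFGF. The genotype is Seh1 f/f in Ctrl and cmv-cre-ert,seh1 f/f in iKO, so both groups carry the floxed alleles and iKO alone carries the recombinase, under the CMV promoter, which is active in many cell types. The other 2 libraries are the same genotypes at day 3, after EGF and bFGF were withdrawn. Neither the number of animals or cultures behind a library nor an inducer is stated in the labels, so the effects of deletion, recombinase, inducer and culture cannot be told apart. Whether all cells of the iKO culture had lost the gene is not stated either.

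Seh1, the product of Seh1l, is a subunit of the Y complex, the scaffold of the nuclear pore through which proteins and RNA pass between nucleus and cytoplasm. It also belongs to GATOR2, which relays amino acid supply to the kinase mTORC1. Neural stem cells in EGF and bFGF cycle continuously, and when they leave the cycle they can form astrocytes, oligodendrocytes and neurons. The transcription factor p53, encoded by Trp53, is a sensor of many kinds of stress that switches on genes of cell cycle arrest, repair and death, and through p21, the product of Cdkn1a, it lowers genes of the cell cycle.

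With 1 library a group no difference has a replicate check, and there are no p-values. Values are CPM after TMM scaling, a fold is the ratio of CPM, and the range in parentheses is its exact 95% interval for counting error only. The log2 ratio is that of iKO to Ctrl after adding 1 CPM to each, and counts of genes past 2-fold or 1.5-fold are taken on that scale, where low genes reach less than their CPM ratio. The libraries held 21040586 (Ctrl) and 20625852 (iKO) rounded expected counts, and the most abundant gene took at most 0.824% of either. The targeted gene, Seh1l, was at 40.3 CPM in Ctrl against 19.2 CPM in iKO, and thus 2.098-fold lower (1.86 to 2.37) over its whole transcript. Its main transcript model, which held 85.7% of Seh1l counts in Ctrl, held 88.5% in iKO, so the remaining counts lay mainly on the same model. Which exon is floxed was not stated in the labels. Esr1, the estrogen receptor gene whose ligand-binding domain is used in inducible recombinases, had 1 count in Ctrl and 1924 in iKO, of which 1921 lay on 1 model.

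Both libraries held high levels of neural stem cell markers. Nes, an intermediate filament of neural progenitors, was at 849 CPM in Ctrl against 663 CPM in iKO, and Sox2, a stem cell transcription factor, at 454 and 350.1 CPM. Olig2, a factor of oligodendrocyte progenitors and of cultured stem cells, was at 1546 and 1292 CPM. All 18 listed stem cell markers passed the minimum level, with summed levels of 8346 and 8776 CPM. Of the markers of other cell types, 11 of the 14 microglial and 9 of the 10 endothelial genes were not found or lay under 1 CPM. Summed over the list, microglial genes read 27.7 and 35.97 CPM, with P2ry12, a purine receptor of microglia, at 4.77 and 8.63 CPM. Aif1, C1qa and C1qb, which define microglia, were at 0 counts in both libraries. Endothelial genes summed to 4.28 and 5.09 CPM.

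At the whole-genome level the difference was lopsided: 350 genes were at least 2-fold higher in iKO, 2.75% of those compared, and 44 at least 2-fold lower, 0.345%. At 1.5-fold the counts came closer, with 1106 genes higher (8.68%) and 723 lower (5.67%). Scaled by library totals instead of TMM, these were 1501 and 346, so 81.3% of the calls were higher instead of 60.5%. The median log2 ratio of all genes was -0.06, and 42.7% of genes lay above 0 against 57.3% below. Library totals raise the log2 ratios by up to 0.129, so the medians below are to be read against that of all genes. Counts of list members past a fold are likewise to be read against the shares of all genes given above. Large ratios in the higher direction were more frequent among genes with few counts: 7.86% of genes at 1 to 5 CPM were 2-fold higher, and 0.408% of those above 100 CPM. The median fell with level too: 0.25 at 1 to 5 CPM, 0.04 at 5 to 20, -0.12 at 20 to 100 and -0.19 above 100 CPM. A list's distance from -0.06 therefore also depends on the levels of its members, for which the list medians were not adjusted. A gene under 1 CPM in Ctrl passes the minimum only if it is higher in iKO, so the filter sets its direction. The counts of genes called higher include such genes.

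**Figure D1:**
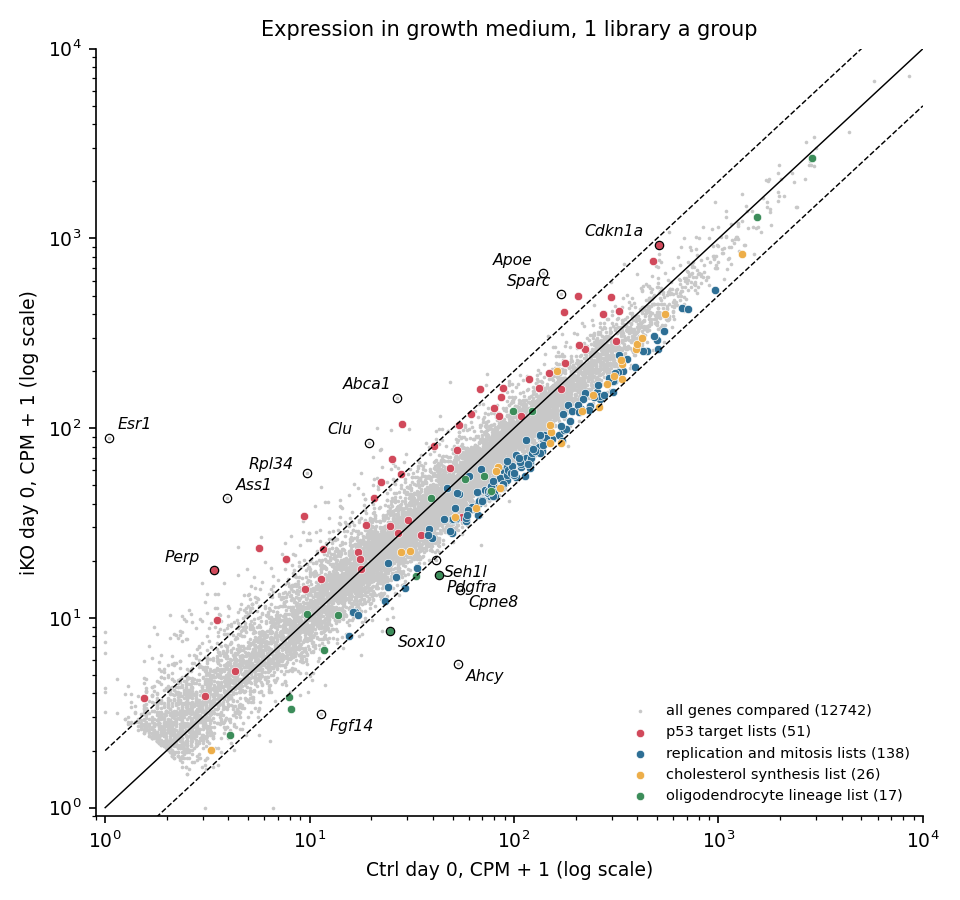
Each point is 1 of the 12742 genes compared, with its level in the Ctrl library on the x axis and in the iKO library on the y axis (CPM + 1, log scales). The solid line marks equal levels and the dashed lines 2-fold. Most p53 targets (red) sit above the solid line, the replication and mitosis genes (blue) form a band under it that stays within 2-fold for all but 3, and Esr1, Ass1 and Ahcy stand far off.

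The genes farthest from the diagonal were of mixed function. Ass1, the enzyme that joins citrulline and aspartate in arginine synthesis (gene ID 11898, chr2:31470270-31520670 on GRCm38.p6), was at 2.95 CPM in Ctrl against 41.9 CPM in iKO, 14.2-fold higher (10.9 to 18.8). Abca1, which exports cholesterol to apolipoproteins (gene ID 11303, chr4:53030789-53159988), was at 25.8 CPM in Ctrl against 144 CPM in iKO, 5.57-fold higher (5.07 to 6.12). Selenop, a secreted selenium carrier (gene ID 20363, chr15:3270767-3280510), was at 20.4 CPM in Ctrl against 99.8 CPM in iKO, 4.89-fold higher (4.400 to 5.44). All of these lay on the higher side, as did Car10, a carbonic anhydrase-related protein, at 1.97 and 14.2 CPM, Palmd at 0.639 and 6.102 CPM, Ptprv, a phosphatase that p53 is known to induce, at 10.3 and 47.7 CPM, and Fam177a at 4.77 and 25.7 CPM, in Ctrl and iKO. Palmd passed the minimum level only through iKO. The 15 largest ratios in the lower direction began with Ahcy, the hydrolase of S-adenosylhomocysteine, at 52.2 CPM in Ctrl against 4.73 CPM in iKO, 11.04-fold lower (9.01 to 13.7). Cpne8, a calcium-dependent membrane-binding protein (gene ID 66871, chr15:90487481-90679388), was at 53.4 CPM in Ctrl against 12.98 CPM in iKO, 4.11-fold lower (3.61 to 4.71), and Fgf14, an intracellular FGF homologue that binds sodium channels, at 10.4 and 2.11 CPM. Smaller but still over 2-fold on the same scale were Moxd1 at 10.9 and 3.44 CPM, Fam135b at 24.5 and 9.08 CPM, Prr5l, a regulator of mTORC2, at 22.9 and 8.86 CPM, the connexin gene Gja5 at 4.67 and 1.42 CPM, and Sapcd2, a regulator of spindle orientation, at 93.8 and 40.2 CPM.

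Some of these values are uncertain because the genes have near-identical copies among which reads can be split. They are the ribosomal protein gene Rpl34 (8.71 and 56.9 CPM), Ahcy, and the H2A histone genes H2ac18 (0.787 and 7.204 CPM), H2ac19 (2.07 and 0 CPM), H2ac23 (8.85 and 3.07 CPM) and H2ac24 (67.9 and 23.2 CPM). H2ac19 had 42 counts in Ctrl and 0 in iKO, and set against a floor of 3 counts per library it was at least 15.01-fold lower, while the exact 95% interval, which also covers the error of the 42 counts, begins at 11.7-fold. Leaving these H2A genes aside, none of the 8 other histone genes compared passed 2-fold on the log2(CPM + 1) scale, with log2 ratios between -0.83 for H1f10 and 0.69 for H3c15.

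**Figure D2:**
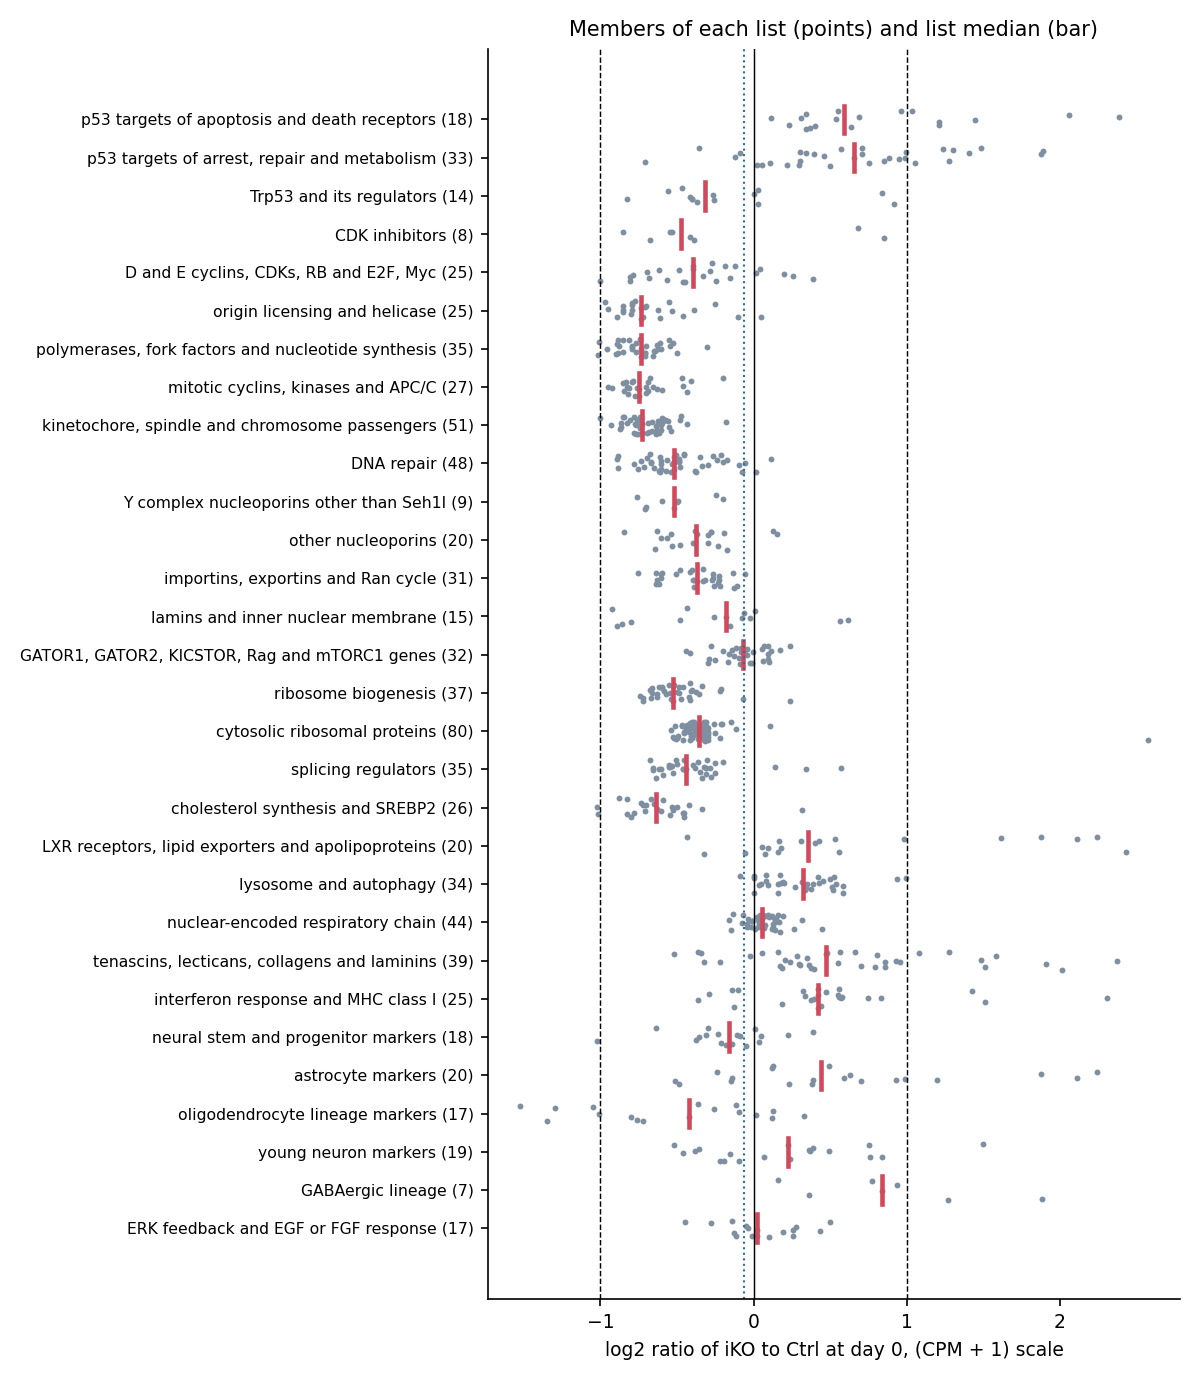
Each row is a gene list, with its number of genes compared in parentheses; points are members' log2 ratios of iKO to Ctrl at day 0, and the red bar is the list's median. Dashed lines mark 2-fold and the dotted line the median of all genes, -0.06. The 4 replication and mitosis lists have medians between -0.75 and -0.73, and the 2 lists of p53 targets have medians of 0.59 and 0.66.

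The nuclear pore genes other than Seh1l were slightly lower as a class. Of the 9 other members of the Y complex and its partners, 4 were at least 1.5-fold lower and none higher, all 9 lay below 0, and the median log2 ratio was -0.52 beside -0.06 for all genes. Nup43, a propeller subunit of the complex, was at 34.7 CPM in Ctrl against 20.1 CPM in iKO, 1.73-fold lower (1.53 to 1.95), and Nup85, the subunit that binds Seh1, was at 125 CPM in Ctrl against 76.2 CPM in iKO, 1.64-fold lower (1.54 to 1.75). Nup107 and Nup133, which form the stem of the Y, were at 74.6 and 45.6 CPM and 99.1 and 65.02 CPM in Ctrl and iKO. Sec13, which also serves in COPII coats, differed least, at 120.01 and 105 CPM, next to Nup98 at 109.8 and 92.6 CPM. The members not yet named lay in between, with Ahctf1 at a log2 ratio of -0.52, Nup37 at -0.50 and Nup160 at -0.49.

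Outside the Y complex 4 of 20 nucleoporins were at least 1.5-fold lower and none higher (median -0.38). Nup210, a membrane nucleoporin, was at 241 CPM in Ctrl against 134 CPM in iKO, 1.801-fold lower (1.72 to 1.89), whereas Aaas read 84.7 and 92.6 CPM. All 31 importins, exportins and Ran-cycle genes lay below 0 (median -0.37), 8 of them by at least 1.5-fold. Rcc1, the exchange factor that loads Ran with GTP, was at 127 CPM in Ctrl against 74.6 CPM in iKO, 1.697-fold lower (1.59 to 1.81). Of 15 genes of the lamina and inner nuclear membrane, 4 were at least 1.5-fold lower and 1 higher. Those 4 were Tmpo, Lmnb1, Lmnb2 and Lbr. Lmnb1, a B-type lamin, was at 478 CPM in Ctrl against 257 CPM in iKO, 1.86-fold lower (1.799 to 1.92), while the A-type lamin gene Lmna was at 42.7 CPM in Ctrl against 66.1 CPM in iKO, 1.55-fold higher (1.42 to 1.69). The B-type and A-type lamin genes thus lay on opposite sides of 0.

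Apart from Seh1l itself, genes of the other Seh1 complex and its pathway barely differed. None of the 32 genes other than Seh1l of GATOR1, GATOR2, KICSTOR, the Rag GTPases and mTORC1 was 1.5-fold apart in either direction. Their log2 ratios ran from -0.44 to 0.24. The list's median was -0.07, and 0.06 with library totals. The lowest was Mios, the GATOR2 subunit that binds Seh1, at 37.5 CPM in Ctrl against 27.3 CPM in iKO, 1.37-fold lower (1.23 to 1.53). Flcn, a GTPase activator for Rag proteins, was the highest, at 39.9 and 47.2 CPM.

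Targets of p53 were mostly higher in iKO: of 51 in both lists together, 47 lay above 0, 26 were at least 1.5-fold and 14 at least 2-fold higher. Trp53 itself was not higher, at 179 CPM in Ctrl against 139 CPM in iKO, 1.29-fold lower (1.23 to 1.36). Of 14 genes of p53 and its regulators, 2 were at least 1.5-fold higher, both of them p53 targets that act back on it: Mdm2, the ubiquitin ligase that degrades p53, at 106 CPM in Ctrl against 191 CPM in iKO, 1.798-fold higher (1.71 to 1.89), and Ccng1, which promotes Mdm2 activity, at 573 CPM in Ctrl against 1084 CPM in iKO, 1.89-fold higher (1.85 to 1.93). Chek1, a checkpoint kinase of S phase, was 1.5-fold lower or more, at 54.8 and 30.5 CPM, and Atm, the kinase of the double-strand break response, was at 73.4 and 49.6 CPM.

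Among p53 targets of apoptosis, all 18 lay above 0, and 9 were at least 1.5-fold and 6 at least 2-fold higher (median 0.59, against 8.68% and 2.75% of all genes). The highest were Perp, a desmosomal protein of p53-dependent death, at 2.41 and 16.8 CPM, Fas, a death receptor, at 4.62 and 22.5 CPM, and Pmaip1, the BH3-only gene of Noxa, at 24.2 and 67.7 CPM. Another BH3-only gene, Bbc3 of Puma, was at 21.4 CPM in Ctrl against 50.8 CPM in iKO, 2.37-fold higher (2.12 to 2.65). Tnfrsf10b, the mouse TRAIL receptor, was at 27.00 CPM in Ctrl against 56.5 CPM in iKO, 2.09-fold higher (1.89 to 2.32), and Trp53inp1 was at 175 CPM in Ctrl against 408 CPM in iKO, 2.32-fold higher (2.24 to 2.42). These 6 were the targets of apoptosis past 2-fold. Bax, the pore former of mitochondria, differed less, at 222 CPM in Ctrl against 261 CPM in iKO, 1.18-fold higher (1.13 to 1.22), as did Apaf1, the apoptosome scaffold, at 47.6 and 60.5 CPM.

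Of 33 p53 targets of arrest, repair and metabolism, 17 were at least 1.5-fold higher and 8 at least 2-fold, with 1 at least 1.5-fold lower (median 0.66). Dcxr, a xylulose reductase, was at 27.3 CPM in Ctrl against 104 CPM in iKO, 3.799-fold higher (3.46 to 4.18), and Pltp, a phospholipid carrier, was at 8.41 CPM in Ctrl against 33.6 CPM in iKO, 3.999-fold higher (3.38 to 4.75). Sesn2, a leucine sensor that inhibits GATOR2, was at 67.5 CPM in Ctrl against 161 CPM in iKO, 2.38-fold higher (2.24 to 2.54). By contrast its paralogue Sesn1 was at 26.1 and 27.2 CPM in Ctrl and iKO. Cdkn1a (gene ID 12575, chr17:29090979-29100722) was at 513 CPM in Ctrl against 926 CPM in iKO, 1.81-fold higher (1.76 to 1.85). Among the other CDK inhibitors, Cdkn2b was 1.65-fold higher (1.43 to 1.896), while Cdkn2c, Cdkn2d, Cdkn3, Cdkn1c, Cdkn1b and Cdkn2a, which encodes ARF, the protein that shields p53 from Mdm2, had log2 ratios from -0.85 to -0.39. Repair genes within the p53 list did not move as a block, with Mgmt, the methyltransferase of alkylated guanine, at 6.69 CPM in Ctrl against 19.4 CPM in iKO and Polh, a translesion polymerase, at 54.6 CPM in Ctrl against 33.04 CPM in iKO.

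**Figure D3:**
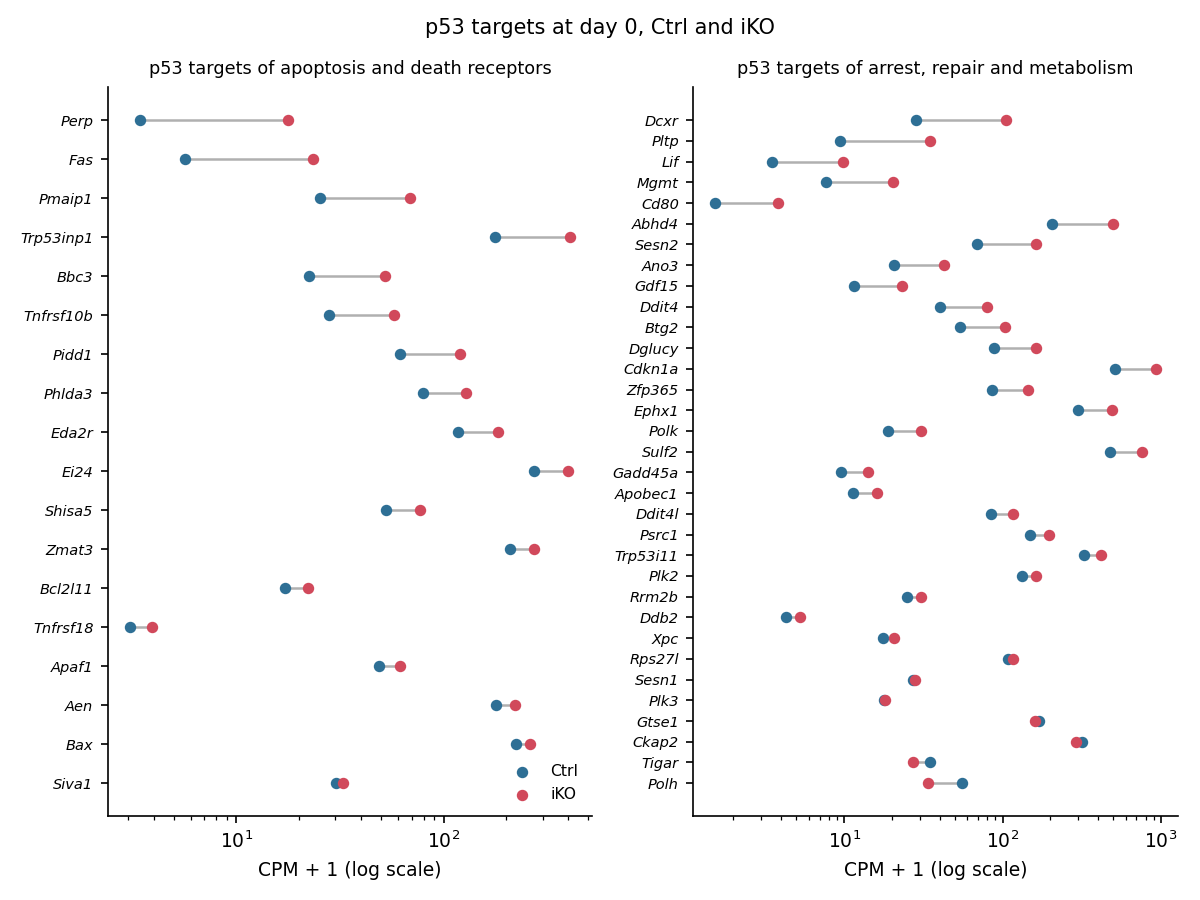
Levels of the 18 targets of apoptosis (left) and 33 targets of arrest, repair and metabolism (right) in the Ctrl library (blue) and the iKO library (red), as CPM + 1 on log axes, ordered by log2 ratio. All 18 on the left and 29 of 33 on the right are higher in iKO, and the widest gaps belong to genes of low CPM in Ctrl such as Perp and Fas.

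Promoter sequence was set beside these lists, since their members differ together. Windows of 250 bases before the start of transcription, from RefSeq on GRCm38.p6, were matched for 10177 of the genes compared, and both strands of every window of a gene were searched. A p53 half-site, searched by its consensus, was present for 7.16% of them, for 5 of 13 targets of apoptosis (38.5%) and for 7 of 30 targets of arrest, repair and metabolism (23.3%). The stretches below show such matches in capitals, written 5′ to 3′ along the gene's strand, before the start of Cdkn1a (chr17:29090891-29090952, plus strand), Bax (chr7:45467075-45467114, minus strand) and Ccng1 (chr11:40755309-40755517, minus strand). In the Ccng1 stretch the capitals also mark CCAAT boxes, read as CCAAT or, on the other strand, ATTGG. The share was also above that of all genes in lists that were lower in iKO, with 5 of 18 genes of cholesterol synthesis (27.8%) and 5 of 32 of ribosome biogenesis (15.6%). Targets of apoptosis had 1.62 windows a gene on average and those of arrest 1.37, against 1.29 for genes compared, so more sequence was searched for them. A match describes letters only and is not a measured binding site.
Cdkn1a: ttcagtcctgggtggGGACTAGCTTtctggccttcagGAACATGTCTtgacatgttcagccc
Bax: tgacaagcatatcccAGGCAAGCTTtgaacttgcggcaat
Ccng1: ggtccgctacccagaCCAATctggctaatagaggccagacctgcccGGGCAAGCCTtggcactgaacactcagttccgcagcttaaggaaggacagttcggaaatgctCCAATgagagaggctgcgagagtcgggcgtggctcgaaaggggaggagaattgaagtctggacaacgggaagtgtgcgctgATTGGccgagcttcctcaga

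Cell cycle genes were lower in iKO with little scatter. Of 138 genes in the 4 lists of replication and mitosis, 137 lay below 0, and 112 were at least 1.5-fold lower against 5.67% of all genes. Only Orc4, an origin recognition subunit, lay above 0, at 45.9 and 47.6 CPM. Despite this evenness only 3 passed 2-fold on the log2(CPM + 1) scale, namely Chaf1a, Pole2 and Kif22, against 0.345% of all genes. The differences were of similar size across functions: the medians were -0.73 for origin licensing and helicase, -0.73 for polymerases, fork factors and nucleotide synthesis, -0.75 for mitotic cyclins and kinases and -0.73 for kinetochore and spindle.

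At the origin, Mcm6, a subunit of the replicative helicase, was at 304 CPM in Ctrl against 154 CPM in iKO, 1.97-fold lower (1.89 to 2.05), and Orc1, the largest origin recognition subunit, was at 14.6 CPM in Ctrl against 7.07 CPM in iKO, 2.06-fold lower (1.69 to 2.52). Other subunits of that complex, Orc2, Orc3 and Orc5, differed less, at log2 ratios of -0.55, -0.10 and -0.25. At the fork, Chaf1a, a histone chaperone, was at 113 CPM in Ctrl against 55.2 CPM in iKO, 2.04-fold lower (1.902 to 2.19), and Pole2, a subunit of the leading-strand polymerase, was at 28.1 CPM in Ctrl against 13.4 CPM in iKO, 2.09-fold lower (1.81 to 2.42). Tk1, which makes thymidine phosphate, was at 119 and 60.9 CPM. Among genes of mitotic entry, Ccna2, the A-type cyclin, was at 507 CPM in Ctrl against 262 CPM in iKO, 1.94-fold lower (1.87 to 2.001), and Ccnb1 at 322 CPM in Ctrl against 197 CPM in iKO, 1.63-fold lower (1.57 to 1.697). Mki67, the proliferation marker, was at 959 CPM in Ctrl against 533 CPM in iKO, 1.799-fold lower (1.76 to 1.84). Kif22, a chromosome-binding kinesin, was at 171 CPM in Ctrl against 84.7 CPM in iKO, 2.02-fold lower (1.904 to 2.13).

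The machinery that drives G1 was lower in part. Of 25 genes 7 were at least 1.5-fold lower, 1 of them 2-fold, and none was higher (median -0.39). E2f2, an activating E2F, was at 49.1 CPM in Ctrl against 24.04 CPM in iKO, and Ccne2, an E cyclin, at 76.4 CPM in Ctrl against 43.2 CPM in iKO. Cyclin D genes did not follow: Ccnd1 was at 2691 CPM in Ctrl against 3217 CPM in iKO, 1.196-fold higher (1.18 to 1.21), and Ccnd2 at 1755 CPM in Ctrl against 2012 CPM in iKO, 1.15-fold higher (1.13 to 1.16), while Ccnd3 was at 114 and 95.9 CPM. Rb1, the G1 gatekeeper, was at 74.4 and 97.6 CPM, and Myc at 258 and 189 CPM. So genes of the S phase programme were lower while Ccnd1 and Ccnd2 were a little higher. DNA repair genes were also lower (median -0.52), 18 of 48 by at least 1.5-fold, against 5.67% of all genes. Ung, which removes uracil from DNA, was at 54.7 and 29.00 CPM, and Exo1, a DNA exonuclease, at 50.7 and 26.9 CPM.

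In the promoter windows of these lists 3 motifs of cell cycle genes were searched. The CCAAT box, bound by NF-Y, was present for 41.2% of the genes compared, 81.8% of 22 genes of mitotic entry and 63.6% of 44 kinetochore and spindle genes. The CHR element TTTGAA, bound by the DREAM complex, was present for 12.4%, 31.8% and 29.5% of the same sets. It was also above the share of all genes in other lists, with 3 of 7 Y complex genes (42.9%), 5 of 16 astrocyte genes (31.2%) and 3 of 13 p53 targets of apoptosis (23.1%), and was present for 3 of 30 fork genes. An E2F site, searched as TTTCGCGC, TTTGGCGC or TTTCCCGC, was present for 3.48% of genes compared and for 36.8% of 19 origin genes, 20.6% of 34 DNA repair genes and 16.7% of 30 fork genes, against 9.09% in both mitosis lists. The stretches of Kif22 (chr7:127042421-127042668, minus strand; capitals mark CCAAT boxes and CHR elements, the latter as TTCAAA on the other strand), Ccnb1 (chr13:100786534-100786600, minus strand; CCAAT boxes) and Mcm6 (chr1:128359706-128359830, minus strand; E2F sites, a pair of which overlap, and CCAAT boxes) show how these letters lie.
Kif22: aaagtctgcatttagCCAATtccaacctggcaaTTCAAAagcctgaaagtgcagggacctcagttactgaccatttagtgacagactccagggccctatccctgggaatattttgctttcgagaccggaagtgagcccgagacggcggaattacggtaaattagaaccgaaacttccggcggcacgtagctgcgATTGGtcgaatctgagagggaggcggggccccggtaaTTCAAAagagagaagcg
Ccnb1: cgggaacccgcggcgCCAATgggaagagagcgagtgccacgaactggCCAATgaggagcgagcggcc
Mcm6: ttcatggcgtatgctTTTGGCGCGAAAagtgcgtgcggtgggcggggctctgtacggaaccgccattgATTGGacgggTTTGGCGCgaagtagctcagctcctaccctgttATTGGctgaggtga

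Genes for building ribosomes and processing RNA were lower too, by less. Of 37 ribosome biogenesis genes 13 were at least 1.5-fold lower and none higher (median -0.52), with Dkc1, the pseudouridine synthase, at 104 CPM in Ctrl against 61.9 CPM in iKO, 1.69-fold lower (1.57 to 1.81), and Nop56, a box C/D core protein, at 236 CPM in Ctrl against 142 CPM in iKO, 1.66-fold lower (1.58 to 1.73). Of 80 ribosomal protein genes 78 lay below 0 (median -0.36), and none was at least 1.5-fold lower. Besides Rpl34 only Rps27l, a p53 target, lay above 0, at 107 and 115 CPM. Of 35 splicing regulators 7 were at least 1.5-fold lower (median -0.44), Snrpd1, a core snRNP protein, at 112 and 69.8 CPM, and Srsf3 at 383 and 242 CPM. In the list of polycomb, DNA methylation and Tet genes 6 of 32 were at least 1.5-fold lower, among them Dnmt1, the maintenance methyltransferase, at 446 CPM in Ctrl against 253 CPM in iKO, Uhrf1, its recruiter, at 388 CPM in Ctrl against 209.9 CPM in iKO and Cbx2 at 35.4 and 18.4 CPM. Tet2 and Ezh1 in that list were at 24.3 and 27.9 CPM and 6.54 and 9.13 CPM.

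Lipid genes split between synthesis and export. Of 26 genes of cholesterol synthesis and its regulator SREBP2, 16 were at least 1.5-fold lower (5.67% of all genes were), 2 of them 2-fold (0.345%). Of the same 26, 25 lay below 0 (median -0.64). Acat2, which makes the acetoacetyl-CoA at the head of the pathway, was at 169.5 CPM in Ctrl against 82.9 CPM in iKO, 2.04-fold lower (1.93 to 2.17), Lss, the lanosterol synthase, at 259 CPM in Ctrl against 128 CPM in iKO, 2.03-fold lower (1.94 to 2.12), and Hmgcs1, the synthase that follows Acat2, at 1297 CPM in Ctrl against 828 CPM in iKO, 1.57-fold lower (1.54 to 1.597). Scap, the escort of SREBP2, lay on the other side, at 161 CPM in Ctrl against 200.4 CPM in iKO, 1.25-fold higher (1.19 to 1.303). In fatty acid synthesis 4 of 21 genes were at least 1.5-fold lower (5.67% of all genes were) and 2 higher (8.68%). Acss2 and Acly, which both make cytosolic acetyl-CoA, were at 90.5 and 51.1 CPM and 502 and 294 CPM, and Elovl7 was at 3.59 and 7.16 CPM.

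On the export side 5 of 20 genes under LXR or of lipid transport were at least 2-fold higher (2.75% of all genes were). None was 1.5-fold lower (median 0.36). Besides Abca1 and Pltp the 5 higher genes were Apoe, the main lipid carrier of the brain, at 138 and 656 CPM, Clu, a related carrier, at 18.4 and 83.05 CPM, and the exporter gene Abcg1 at 1.52 CPM in Ctrl against 6.74 CPM in iKO, 4.42-fold higher (2.99 to 6.74). Apoe and Clu are also in the astrocyte list and Pltp in a p53 list, so the counts of these lists are not independent. The receptor genes themselves were Nr1h2 at 45.2 and 50.9 CPM and Nr1h3 at 1.08 and 2.06 CPM. Mylip, another LXR target, was at 1.08 and 1.19 CPM, so the targets in the list were not all higher to the same degree. Of 34 lysosome and autophagy genes 33 lay above 0, against 42.7% of all genes (list median 0.32). At 1.5-fold 3 were higher, near the share of all genes (8.68%). Ctsd, a lysosomal protease, was at 296 CPM in Ctrl against 591 CPM in iKO, 1.997-fold higher (1.94 to 2.06), Wipi1, an autophagosome protein, at 12.3 and 24.6 CPM, and Grn, the progranulin gene, at 79.1 and 119 CPM.

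The promoters of the cholesterol genes were rich in CCAAT boxes, present for 16 of the 18 with a window (88.9% against 41.2%). The sterol element core TCACCCCA was present for 2 of 18 (11.1%, against 1.43% of genes compared), and for 4 of 16 astrocyte genes (25%), a list whose median was above 0. Hmgcs1 is shown here (chr13:119690101-119690325, plus strand) with both motifs in capitals.
Hmgcs1: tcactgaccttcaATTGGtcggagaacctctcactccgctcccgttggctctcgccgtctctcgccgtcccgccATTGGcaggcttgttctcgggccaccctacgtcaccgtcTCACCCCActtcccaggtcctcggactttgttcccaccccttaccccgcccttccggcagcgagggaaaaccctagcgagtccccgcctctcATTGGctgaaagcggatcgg

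Lineage markers were uneven at day 0. In these bulk samples fewer cells of a type and less RNA per cell cannot be told apart. Of 20 astrocyte markers 9 were at least 1.5-fold higher (8.68% of all genes were), 4 of them 2-fold (2.75%), and none lower by 1.5-fold (median 0.44). Gfap, the astrocyte filament, was at 3.93 CPM in Ctrl against 17.1 CPM in iKO, 4.35-fold higher (3.41 to 5.61), and Aqp4, the water channel of end feet, was at 20.6 CPM in Ctrl against 48.4 CPM in iKO, 2.35-fold higher (2.098 to 2.64). Id3 and Fgfr3 were on the other side, at 47.4 and 33.5 CPM and 183 and 128 CPM. The summed level of the list was 4742 CPM in Ctrl and 6634 CPM in iKO, and the widest differences in CPM within it were those of Apoe and Slc1a3, the latter a glutamate transporter at 1307 and 1709 CPM that is also in the stem cell list.

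Oligodendrocyte lineage markers were lower in part. Of 17 genes 8 were at least 1.5-fold lower (5.67% of all genes were), 5 of them 2-fold (0.345%), and none higher (median -0.42). The 5 were Sox10 at 23.7 and 7.57 CPM, Pdgfra at 41.8 and 15.8 CPM, Gpr17, a receptor of committed precursors, at 7.08 and 2.29 CPM, Cldn11, a myelin claudin, at 6.94 and 2.84 CPM and Mbp, the myelin basic protein, at 32.3 and 15.6 CPM, each in Ctrl and iKO. Olig1 (2862 CPM in Ctrl against 2648 CPM in iKO), Nkx2-2 (56.4 and 52.7 CPM) and Cspg4 (121 and 123 CPM) hardly differed, and Cnp, a myelin enzyme, was at 97.4 and 123 CPM. In all 13 of the 17 lay below 0, Olig2 by less than 1.5-fold.

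Young neuron markers went both ways, with 4 of 19 at least 1.5-fold higher, none lower by that much and a median of 0.22. Stmn2, a growth-cone protein, was at 2.31 and 8.35 CPM, Dcx at 9.099 CPM in Ctrl against 17.02 CPM in iKO, 1.87-fold higher (1.56 to 2.24), and Tubb3 at 11.8 CPM in Ctrl against 20.6 CPM in iKO, 1.75-fold higher (1.49 to 2.06). Dpysl3 and Gap43 were lower, at 692 and 481 CPM and 156 and 113 CPM. The GABAergic list was more even: all 7 genes lay above 0, 5 of them by 1.5-fold or more. Sp9, a factor of interneuron progenitors, was at 1.33 CPM in Ctrl against 7.57 CPM in iKO, 5.701-fold higher (3.78 to 8.91), Gad1 at 13.1 and 33.1 CPM, Gad2 at 1.92 and 4.59 CPM, Dlx1 at 7.48 and 14.1 CPM, Sp8 at 5.26 and 9.73 CPM and Dlx2 at 13.2 and 17.3 CPM. The summed level of the list was 85.9 CPM in Ctrl and 137 CPM in iKO. Of the intermediate progenitor and proneural list 5 of 12 genes could be compared, and Neurod1 was at 0.984 and 3.26 CPM, Btg2, which is also a p53 target, at 52.97 and 103 CPM, Insm1 at 52.7 and 59.5 CPM, Hes6 at 89.6 and 92.2 CPM and Elavl4 at 65.02 and 48.9 CPM. The excitatory markers Eomes and Tbr1 lay under the minimum level, and Neurod1 passed that level only through iKO.

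**Figure D4:**
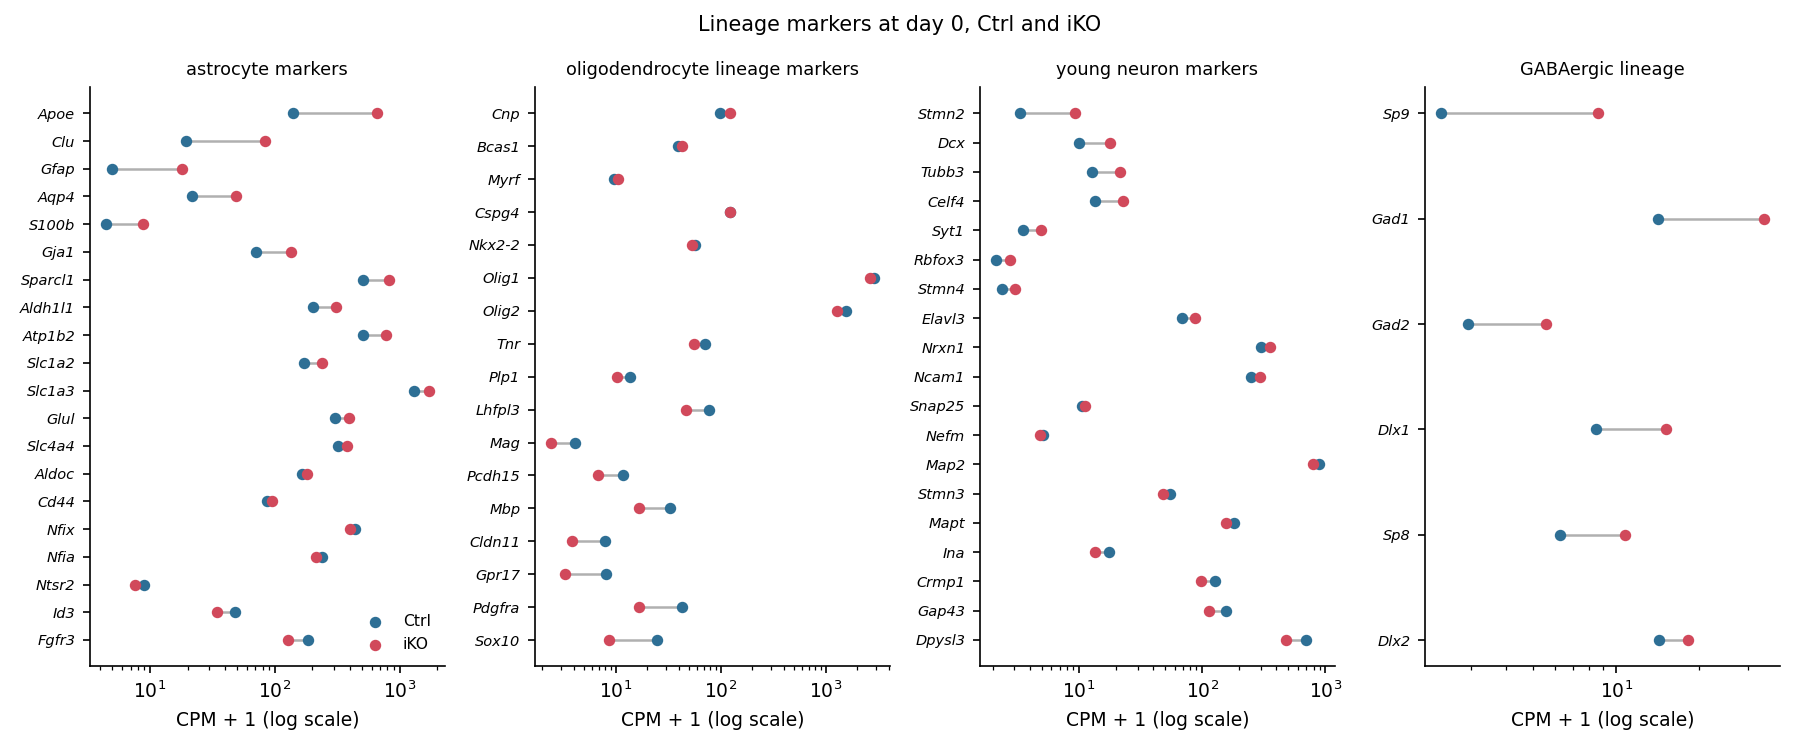
Levels of lineage markers in the Ctrl library (blue) and the iKO library (red), as CPM + 1 on log axes, ordered within each list by log2 ratio, with 6 of the 7 GABAergic genes shown. The widest gaps are those of Apoe, Clu and Gfap in the astrocyte panel, of Sox10, Pdgfra and Gpr17, lower in iKO, in the oligodendrocyte panel, and of Sp9 and Gad1 in the GABAergic panel.

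Most stem cell markers themselves differed by less than 1.5-fold. Of 18, 2 were at least 1.5-fold lower (5.67% of all genes were) and none higher. Below 0 lay 13 of the 18, against 57.3% of all genes, with a list median of -0.16 beside -0.06. Hes5, a Notch effector, was at 9.05 CPM in Ctrl against 3.95 CPM in iKO, 2.29-fold lower (1.77 to 2.998), and Pax6 at 44.1 CPM in Ctrl against 27.99 CPM in iKO, 1.58-fold lower (1.42 to 1.75). Egfr, the EGF receptor, was at 265 and 275 CPM and Vim at 2924 and 3418 CPM. Ependymal genes were higher for part of the list, with Foxj1, the regulator of motile cilia, at 50.9 CPM in Ctrl against 103 CPM in iKO, 2.03-fold higher (1.89 to 2.19), Dnaic1, a dynein chain of cilia, at 3.25 and 8.53 CPM and Rsph1 at 1.08 and 3.21 CPM. Their summed level over 24 genes was 121 CPM in Ctrl and 191 CPM in iKO. Rfx2 (6.59 and 9.36 CPM), Rarres2 (1.57 and 2.84 CPM), Rsph9 (1.67 and 3.12 CPM) and Dnaic2 (0.689 and 1.84 CPM) were higher by less on the log2(CPM + 1) scale, and Rfx3 (38.2 and 39.8 CPM), Hydin (3.197 and 2.71 CPM) and Cfap43 (12.1 and 10.2 CPM) were close to level. Dnaic2 passed the minimum level only through iKO.

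Genes of ERK feedback and of the EGF or FGF response stayed near level in this medium, which held EGF and bFGF. None of 17 ERK feedback and response genes was 1.5-fold apart (median 0.02). Dusp6, an ERK phosphatase, was at 309 CPM in Ctrl against 438 CPM in iKO, 1.42-fold higher (1.37 to 1.46), and Errfi1, an inhibitor of EGFR, was at 12.6 and 17.4 CPM. Of 16 EGF and FGF receptors and ligands 2 were at least 1.5-fold higher (8.68% of all genes were) and 2 lower (5.67%), and the lowest was Fgf14, given above. Fgfr2 was at 28.2 CPM in Ctrl against 52.8 CPM in iKO, 1.87-fold higher (1.69 to 2.08), and Nrg1, a ligand of ErbB receptors, at 23.6 CPM in Ctrl against 46.5 CPM in iKO, 1.97-fold higher (1.77 to 2.201). In the list of 16 immediate early genes 3 were at least 1.5-fold higher and 1 lower. Past 2-fold lay only Klf4, a factor of arrest and stemness, at 4.48 CPM in Ctrl against 11.1 CPM in iKO, 2.49-fold higher (1.95 to 3.21). Notch genes went both ways: Notch3 was at 40.4 CPM in Ctrl against 95.4 CPM in iKO, 2.36-fold higher (2.18 to 2.56), and Nrarp, a Notch feedback gene, at 38.6 CPM in Ctrl against 21.4 CPM in iKO, 1.802-fold lower (1.605 to 2.02). In the BMP and TGF beta list Id4 was the highest, at 2.902 and 5.37 CPM, and Nog, a BMP antagonist, the lowest, at 2.95 and 1.65 CPM. In the Wnt and Hedgehog list these were Lgr5, a receptor of R-spondins, at 3.84 and 9.22 CPM, and Nkd1, a feedback inhibitor of Wnt, at 38.3 and 22.1 CPM. In the IGF list Igf2 was at 1.77 CPM in Ctrl against 7.89 CPM in iKO, 4.46-fold higher (3.097 to 6.57), and Igfbp3, a binding protein, at 964 CPM in Ctrl against 1551 CPM in iKO, 1.61-fold higher (1.58 to 1.64).

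Part of the matrix genes was higher in iKO. Of 39 tenascin, lectican, collagen and laminin genes 8 were at least 2-fold higher (2.75% of all genes were), 16 at least 1.5-fold higher (8.68%) and none lower by 1.5-fold (median 0.48). Thbs1, a matricellular protein, was at 2.804 CPM in Ctrl against 14.4 CPM in iKO, 5.12-fold higher (3.85 to 6.92), its paralogue Thbs2 at 1.18 CPM in Ctrl against 7.204 CPM in iKO, 6.103-fold higher (3.96 to 9.81), and Hmcn2, a hemicentin, at 0.738 CPM in Ctrl against 7.98 CPM in iKO. Hmcn2 passed the minimum only through iKO. Genes of the basement membrane included Sparc, a collagen-binding protein, at 168 CPM in Ctrl against 507 CPM in iKO, 3.01-fold higher (2.900 to 3.13), Lamb1 at 8.95 CPM in Ctrl against 26.9 CPM in iKO, 3.004-fold higher (2.54 to 3.57), Col4a1 at 31.1 and 57.2 CPM and Nid1 at 6.84 and 14.2 CPM. The main tenascin and lectican genes of neural stem cells barely differed, Tnc at 1029 and 1014 CPM and Bcan, the brevican gene, at 649.9 and 725 CPM. Markers of fibroblasts and mural cells read as follows: their list summed to 178 CPM in Ctrl and 209 CPM in iKO, of which Cspg4, also a marker of oligodendrocyte precursors, gave 121 and 123 CPM. Acta2 was at 2.46 and 10.3 CPM, Tagln at 0.836 and 4.86 CPM, Rgs5 at 0.836 and 3.58 CPM and Ogn at 0.5902 and 3.12 CPM, while Col1a1 (2.56 and 3.95 CPM), Col1a2 (0.935 and 1.47 CPM), Foxc1 (5.51 and 6.38 CPM), Fn1 (40.1 and 49.00 CPM) and Des (1.13 and 1.01 CPM) were under 2-fold, and Dcn, Lum and Pdgfrb lay under the minimum. Tagln, Rgs5, Ogn and Col1a2 lay under 1 CPM in Ctrl and so passed the minimum only through iKO. The part of the fibroblast and mural list in the matrix result was not tested.

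Cell surface and secretory genes followed with smaller counts. Of 33 integrins, semaphorins and plexins 8 were at least 1.5-fold higher (8.68% of all genes were) and 1 lower (5.67%). Itga3, a laminin-binding integrin, was at 3.89 CPM in Ctrl against 7.94 CPM in iKO and Sema3e at 2.16 CPM in Ctrl against 5.05 CPM in iKO. Of 21 inflammatory and secreted factors 4 were at least 2-fold higher: Serpina3n, an acute-phase protease inhibitor, at 2.16 and 9.64 CPM, Lif, a cytokine that p53 also induces, at 2.51 and 8.81 CPM, C4b, a complement gene, at 1.03 and 4.68 CPM, and Mmp2, a gelatinase, at 4.57 and 11.6 CPM. Mmp15, a membrane protease, was lower, at 1492 CPM in Ctrl against 825 CPM in iKO, 1.81-fold lower (1.78 to 1.84). Many classic members such as Il6, Il1b and Cxcl1 were under the minimum level or not in the files. Among interferon and antigen presentation genes 20 of 25 lay above 0 (42.7% of all genes did), 3 of them by 2-fold or more (2.75%). Of these 3, Nlrc5 passed the minimum only through iKO. Tap1, the peptide transporter of class I, was at 14.7 CPM in Ctrl against 43.6 CPM in iKO, 2.97-fold higher (2.61 to 3.399), Nlrc5, the activator of class I genes, at 0.344 and 2.62 CPM, and Gbp9, a guanylate-binding protein, at 1.08 and 9.31 CPM. The class I heavy chain gene H2-K1 was not higher, at 54.7 and 50.9 CPM.

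Synaptic and secretory vesicle genes of neurons and glia showed 6 of 36 at least 2-fold higher (2.75% of all genes were) and 1 lower (0.345%). The 6 include a gene under 1 CPM in Ctrl, which passed the minimum only through iKO. Gria1, an AMPA receptor subunit, was at 9.59 CPM in Ctrl against 37.7 CPM in iKO, 3.93-fold higher (3.36 to 4.62), and Chgb, a granin, at 4.72 CPM in Ctrl against 13.3 CPM in iKO, 2.81-fold higher (2.22 to 3.58). Syt6, a synaptotagmin, was lower at 16.9 CPM in Ctrl against 5.41 CPM in iKO, 3.12-fold lower (2.52 to 3.87), as was Cacng4, an AMPA receptor partner, at 32.7 and 16.6 CPM. Among glutamate receptors the AMPA and kainate classes lay on opposite sides: all 4 AMPA subunit genes were above 0, with Gria2 at 211 and 241 CPM and Gria3 at 52.97 and 94.9 CPM, and all 5 kainate subunit genes below it, with Grik3 at 20.8 and 12.4 CPM and Grik5 at 148 and 128 CPM. Of 44 clustered protocadherins, adhesion genes whose isoforms share exons and whose counts are therefore uncertain, 8 were at least 1.5-fold higher and none lower. Pcdhgc5 was at 24.6 CPM in Ctrl against 64.6 CPM in iKO, 2.62-fold higher (2.37 to 2.91).

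Metabolic and stress lists were mostly level. None of 44 respiratory chain genes was 1.5-fold apart (median 0.06), and the highest, Ndufa1, was at 19.3 and 26.7 CPM. Among glycolysis and hypoxia genes Ldhb, a lactate dehydrogenase, was at 146 CPM in Ctrl against 305 CPM in iKO, 2.09-fold higher (2.002 to 2.18), and Adm, adrenomedullin, at 19.7 and 37.1 CPM. In arginine, polyamine, serine and methionine metabolism 5 of 28 genes were at least 1.5-fold lower (5.67% of all genes were). Besides Ahcy these included Mthfd1l and Shmt1, folate enzymes of mitochondria and cytosol, at 83.6 and 43.7 CPM and 100.5 and 54.2 CPM, and Slc7a1, an arginine importer, at 172 and 101 CPM. Asl, the enzyme after Ass1, was at 8.85 and 10.3 CPM in Ctrl and iKO. Of 26 NRF2 and glutathione genes 4 were at least 1.5-fold higher (8.68% of all genes were). The 4 were led by Gstm1 at 343 CPM in Ctrl against 729 CPM in iKO, 2.13-fold higher (2.07 to 2.19), Gsta4 at 19.4 and 38.8 CPM and Hmox1, heme oxygenase, at 43.4 and 85.2 CPM. The metallothionein genes Mt2 and Mt3 were at 81.4 and 132 CPM and 219.9 and 344 CPM. The ATF4 list had 2 of 24 genes at least 1.5-fold higher and 1 lower (median -0.20), near the shares of all genes (8.68% and 5.67%). Both of the higher ones, Ddit4 and Sesn2, are also in the p53 list. Asns, a direct ATF4 target for asparagine synthesis, was at 69.1 and 54.2 CPM. Chaperones were near level (median -0.12, and 0.01 with library totals), with Hspd1 lowest at 605 and 436 CPM.

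The same members at day 3, in libraries that share none with day 0, read differently in several lists. The medians of the p53 lists were 1.43 and 1.46 at day 3, beside 0.59 and 0.66 at day 0. Cdkn1a was at 43.1 CPM in Ctrl against 578 CPM in iKO there, 13.4-fold higher (12.5 to 14.4), and both levels lay under those of day 0. The 4 replication and mitosis medians lay between -0.17 and -0.01 at day 3, where both Ctrl and iKO cells were without growth factors. Mki67, for example, was at 58.7 CPM in Ctrl against 42.99 CPM in iKO at day 3, a value 1.37-fold lower (1.25 to 1.496), and Mcm6 at 12.1 CPM in Ctrl against 10.9 CPM in iKO. Those of Y complex genes and of transport factors were -0.06 and -0.06. Cholesterol synthesis was at -0.79 and oligodendrocyte markers at -2.27, and Pdgfra read 128 CPM in Ctrl against 5.25 CPM in iKO. The neuron and GABAergic lists were at -1.12 and -0.77, below 0 where day 0 was above it. Gad1 at day 3 was at 52.5 CPM in Ctrl against 41.2 CPM in iKO and Tubb3 at 70.98 CPM in Ctrl against 15.5 CPM in iKO. The respiratory chain list was at 0.76 and the ERK list at 0.56. Among the 350 genes called higher at day 0, 159 were also at least 2-fold higher at day 3, 183 were under 2-fold and 8 were lower. Of the 44 lower genes, 17 were lower at day 3, 27 were under 2-fold and 0 were higher. Over the same 12742 genes 5.85% were higher and 4.47% lower at day 3. The difference between days rests on 1 library for each genotype and day and was not tested.

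**Figure D5:**
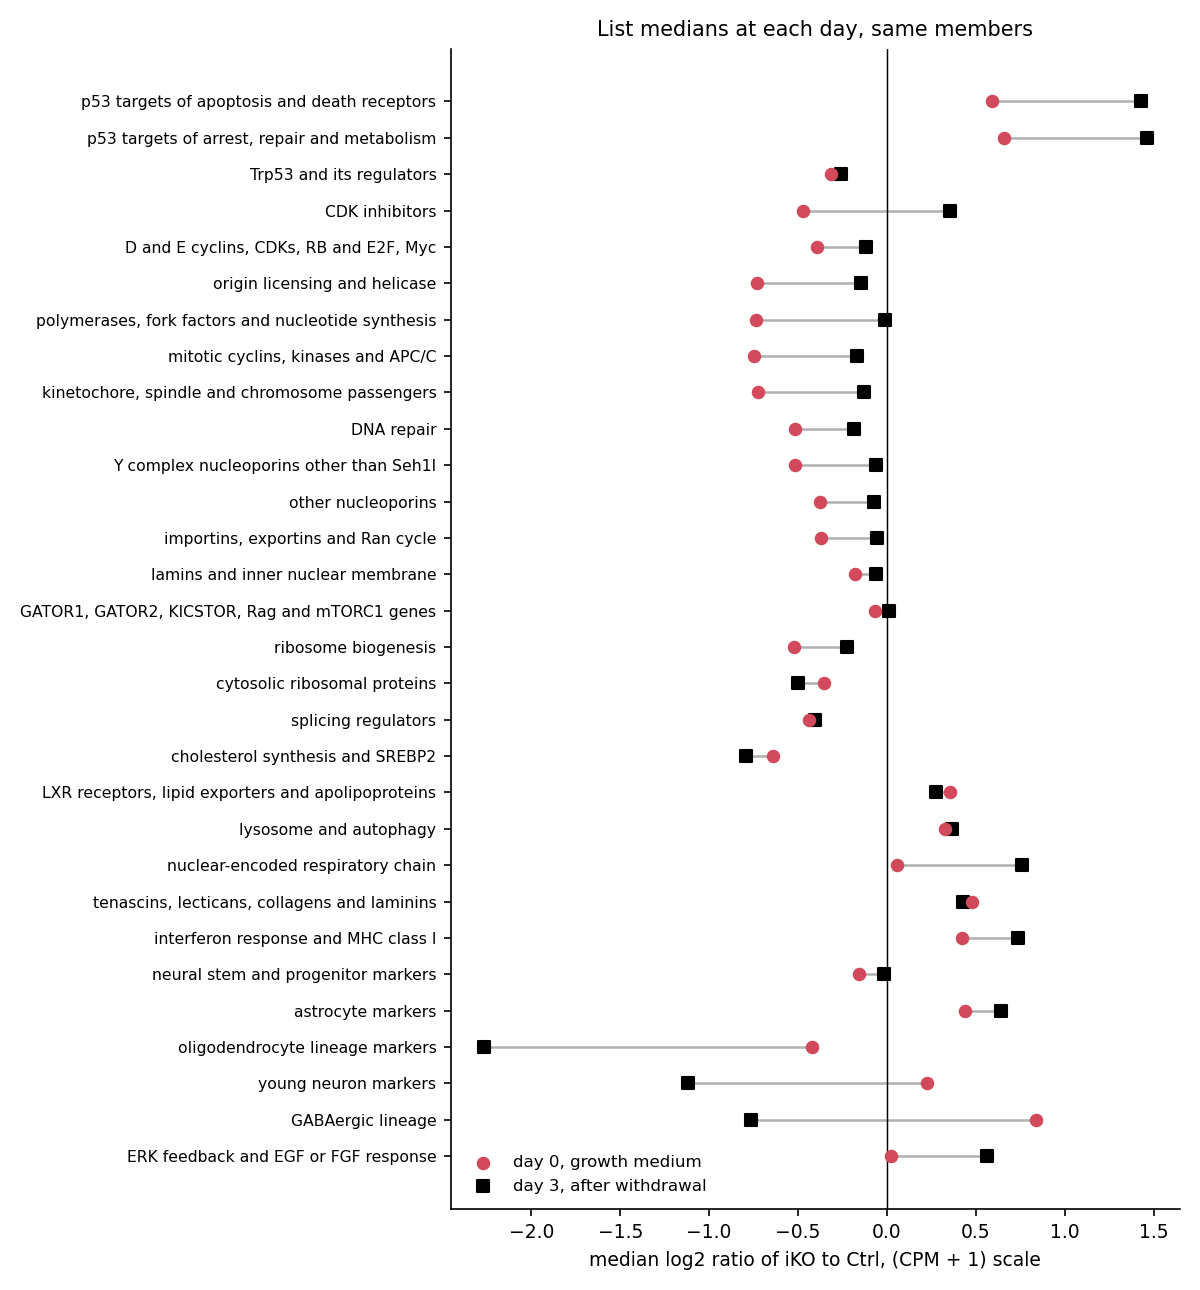
Median log2 ratio of iKO to Ctrl for each list at day 0 (red circles) and at day 3 (black squares), over the same members. The p53 lists and the oligodendrocyte list lie farther from 0 at day 3, the replication, mitosis and nuclear pore lists lie nearer to it, and the neuron and GABAergic lists change side.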

How the data were processed

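Total RNA from primary neural stem cells was sequenced from BGI libraries, per the labels' protocols. HISAT, Bowtie2, StringTie and the mm10 build are named, per the submitters' processing notes, with no version of any. The deposited files hold estimated counts, with decimals, for 55122 transcripts a library. An expression value beside them has no named unit. It was treated as FPKM, taken to be counts divided by the authors by transcript length and library size within the deposited files. The ratio of this value to the count, compared between libraries, was near constant over 1338 transcripts (0.9799 to 0.9802). Other units scaled by length could pass the same check, so the unit is an assumption. How reads were counted, the annotation release and any use of strand: not given in the sources used here. Tables of differential genes deposited by the authors, with log2 ratios and FDR, were not used.

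Counts were summed per gene (17621 genes) and rounded, and 17498 gene IDs were named from RefSeq (GRCm38.p6). TMM factors from edgeR 4.0.16 in R 4.3.3 over the 4 libraries came to 0.966 (Ctrl, day 0) and 1.06 (iKO, day 0). The 4879 genes with a mean under 1 CPM in the day 0 libraries were left out. A gene was called from log2((CPM + 1) ratio) at 2-fold or 1.5-fold, a scale that understates ratios of low genes, and the printed fold is the CPM ratio with its exact conditional 95% interval (scipy 1.17.1). Reads without molecular identifiers are not independent molecules. The ratio code was tested on simulated data for this comparison, where 95.2% of intervals over 12742 genes held the true ratio.

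The members, the 55 gene lists and the rules were chosen with earlier results of these data known. Named genes were Seh1l, Esr1 and Cdkn1a, the 15 largest ratios in each direction, up to 3 members of each list in each direction, every member of lists of up to 12, and genes shown for a promoter. Other list members that are named were chosen after their values were seen, and a few genes are not reported here. Promoter windows are those of RefSeq, read along the gene. The settings varied were the pseudocount (0.1 or 5 CPM), the minimum (none or 5 CPM), and the scaling, by library totals, TMM on the day 0 libraries, DESeq2 1.42.0 size factors or library totals without ribosomal protein and histone genes, and FPKM in place of counts.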

Additional observations from a re-analysis of the deposited data

Results flagged for a closer look

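For 14 lists the median log2 ratio of iKO to Ctrl had one sign at day 0 and the other at day 3, and for 8 genes the difference was at least 2-fold in opposite directions. With 1 library for each genotype and day these differences were not tested.

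Lists of neuronal genes were above 0 at day 0 and below it at day 3. They were the young neuron markers (0.22 at day 0 and -1.12 at day 3), the GABAergic lineage (0.84 and -0.77), the intermediate progenitor and proneural factors (0.17 and -0.39), the glutamate receptor, granin and secretory vesicle genes (0.35 and -0.16) and the clustered protocadherins (0.32 and -0.23).

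The other 9 lists went from below 0 to above it. The CDK inhibitors read -0.47 at day 0 and 0.35 at day 3, the ATF4 and amino acid response genes -0.20 and 0.77, and arginine, polyamine, serine and methionine metabolism -0.16 and 0.32. In 6 lists the day 0 median was within 0.10 of 0 on the log2 scale, and it changes sign with the scaling for all 6. They were the GATOR and mTORC1 genes (-0.07 and 0.01), crest and Schwann cell markers (-0.07 and 0.42), immediate early genes (-0.07 and 0.46), BMP and TGF beta genes (-0.02 and 0.29), Wnt and Hedgehog genes (-0.04 and 0.14) and histones (-0.03 and 0.38).

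All 8 genes were higher at day 0 and lower at day 3, and most are known from neurons. They are 8 of the 350 genes called higher at day 0, where only 44 were called lower. Over all genes compared 4.47% were at least 2-fold lower at day 3, a larger share than 8 of 350. Islr2, an axon guidance receptor, was at 1.33 CPM in Ctrl against 7.16 CPM in iKO at day 0 (log2 ratio 1.81) and at 1.44 CPM in Ctrl against 0.05301 CPM in iKO at day 3. The granin genes Chgb and Scg2, of dense-core vesicles, had log2 ratios of 1.32 and 1.11 at day 0 and of -1.42 and -3.13 at day 3. Rab3c, a small GTPase of vesicle release, had 1.06 and -2.40. Iqsec3, a protein of inhibitory synapses, had 1.43 and -1.48, Rgs8, a regulator of G protein signalling, 1.25 and -1.16, and Ryr3, a calcium release channel, 1.11 and -2.11. The protocadherin gene Pcdha10, which had 9 and 63 counts in Ctrl and iKO at day 0 and passed the minimum level only through iKO, had 1.43 and -1.54.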

How the results depend on the processing

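No paired analysis was possible because each group holds 1 library. Counts of genes moved with the settings. Against 350 higher and 44 lower genes at 2-fold, and 1106 and 723 at 1.5-fold, a pseudocount of 0.1 CPM gave 597 and 80 at 2-fold, and one of 5 CPM gave 111 and 13 at 2-fold and 519 and 464 at 1.5-fold. A minimum of 5 CPM gave 210 higher at 2-fold and 666 at 1.5-fold, with 50.1% of the 1.5-fold calls higher. Library totals gave 25 lower at 2-fold and 346 at 1.5-fold, totals without ribosomal protein and histone genes 26 and 376 (79.7% of the 1.5-fold calls higher), and the deposited FPKM 19 and 264 (79.5%). The cause was not tested. List medians, taken here as the difference from the median of all genes, left the 95% order-statistic interval of the reported median in 12 of 486 recomputations. In 12 they changed sign, in 6 lists whose interval held 0: the GATOR, immediate early, crest and Schwann cell, Notch, Wnt and Hedgehog lists and histones, which read -0.29 with a minimum of 5 CPM. No list whose interval lay off 0 changed sign. Subtracting the median of all genes takes out nearly all of a change in library scaling, so recomputations that change only the scaling could hardly differ. The interval is taken over list members, which are not replicates of the libraries. With a pseudocount of 0.1 CPM the microglial list read 0.87. With 5 CPM the interferon list read 0.35 and the protocadherins 0.32. With no minimum, fork genes read -0.73, mitotic entry -0.75, spindle -0.72, the microglial list 0.003, Wnt and Hedgehog genes -0.032, the respiratory chain 0.060 and ribosomal proteins -0.35. With a minimum of 5 CPM ribosomal proteins read -0.26, and with FPKM the interferon list read 0.40. Without that subtraction, 8 of 54 medians near 0 change sign with the scaling. Of 282 recomputed ratios of named genes 209 stayed within their counting interval, 73 moved beyond it and 0 of those called at 2-fold changed sign. Genes under 5 CPM rest on few counts, and differences there were limited by depth.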

Other observations

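Some of the genes that were at least 2-fold higher at day 0 lay next to each other among the genes compared. There were 22 such runs of neighbours called in the same direction, 20 of them pairs, 1 of 3 genes and 1 of 6, and 21 of the 22 were higher. Clu, Ephx2, an epoxide hydrolase, and Ptk2b, a focal adhesion kinase, lay together on chromosome 14, with Ephx2 at 1.87 CPM in Ctrl against 5.001 CPM in iKO and Ptk2b at 1.62 CPM in Ctrl against 9.54 CPM in iKO. Acta2 (34240336 to 34255585) and Fas (34290647 to 34327775) formed a pair on chromosome 19, and Hmcn2 and Ass1 one on chromosome 2 (31314255 to 31520670). Selenop lay beside Ghr, the growth hormone receptor gene, at 3.64 CPM in Ctrl against 10.8 CPM in iKO. Abcg1 lay beside Rsph1, and the regulators of G protein signalling Rgs8 and Rgs16 beside each other, the latter at 13.1 CPM in Ctrl against 30.2 CPM in iKO. Chance runs were not counted.

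The run of 6 lay in a cluster of near-identical zinc finger genes on chromosome 2 (176226565 to 176927813), and a pair from such genes lay at 175314700 to 175754980. Of these genes Gm2007 had 0 counts in Ctrl and 163 in iKO, which is at least 50.7-fold higher against a floor of 3 counts per library (the exact 95% interval begins at 40.8-fold), and Gm14305 had 0 and 140 counts, at least 43.5-fold (34.9-fold). Copies of this kind can take reads from each other, so the value of any 1 gene is uncertain. Chromosome 2 held 47 genes called higher of 1029 compared (4.57%), among them the 8 genes of these runs, beside 2.75% over all genes and 5 of 434 on the X chromosome (1.15%).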
